A study of Mus musculus with 9 samples.

Results

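Glycolysis splits glucose into pyruvate in the cytosol, and lactate dehydrogenase can then turn pyruvate into lactate. Hexokinases trap glucose in the cell, phosphofructokinase commits the sugar to the pathway, and the lower steps from Gapdh to pyruvate kinase return ATP and NADH. In B cells the pathway is known to be switched on with activation and proliferation, when glucose uptake and lactate release increase. The 10 genes described here encode enzymes of 9 steps, namely Hk1, Hk2, Gpi1, Pfkl, Aldoa, Gapdh, Pgk1, Eno1, Pkm and Ldha. They were taken by gene symbol with no threshold on a value, from a list drawn up with earlier results of these data known, and all 10 were among the 24346 genes in the files.

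The values came from RNA-seq of splenic B cells of C57BL6 mice in 9 libraries. FO B (Young) was follicular (FO) B cells of mice 8 weeks old, FO B (Aged) was FO B cells of mice 50 weeks old, and ABCs (Aged) was age-associated B cells (ABCs) of mice 50 weeks old, with 3 libraries in each group. All were untreated cells of wild-type mice, sorted as B220hiCD43- with CD21 low, and differed in the gate by CD23+ for FO B cells and by CD23-CD11b+CD11c+ for ABCs. There was no ABC group of young mice, so the effect of age on ABCs cannot be read from these libraries. The level of a gene was its FPKM, its reads scaled to transcript length and to the mapped reads of the library, so levels of different genes are compared per length. Changes were differences of log2(FPKM + 1), tested with limma over all genes whose mean reached 1 FPKM and called at a Benjamini-Hochberg FDR under 0.01.

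Each library had between 7390000 and 8990000 reads as estimated from the FPKM steps that single reads give in low genes, and 10032 to 10445 genes at 1 FPKM or more. Transcripts of the gate were as follows. Fcer2a, which encodes CD23, was at 697 to 728 FPKM in FO B (Aged) and 0.463 to 6.95 FPKM in ABCs, whereas Itgax, which encodes CD11c, was at 0.0322 to 0.206 and 45.0 to 59.7 FPKM. Spn, which encodes CD43, was at 54.1 to 86.7 FPKM in ABCs although the gate was CD43-, and at 2.75 to 3.32 FPKM in FO B (Aged). Cr2, which encodes CD21, was at 127 to 166 FPKM in FO B (Aged) and 0.745 to 8.39 FPKM in ABCs, although both gates were CD21 low. ABCs replicate 3 stood apart from the other 2 ABC libraries, with a cell cycle sum of 128 FPKM over 12 genes against 77.4 and 85.5 FPKM and with the lowest B lineage sum of all 9 libraries, 7688 FPKM.

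The 10 genes spanned a wide range of levels. In FO B (Aged), Gapdh had a mean of 500.3 FPKM and Aldoa 492 FPKM, followed by Ldha with 393 and Eno1 with 364 FPKM, and the libraries overlapped within each of these pairs. Pkm (214 FPKM), Gpi1 (95.1 FPKM), Pgk1 (62.0 FPKM), Pfkl (22.2 FPKM), Hk1 (11.2 FPKM) and Hk2 (0.584 FPKM) followed, each with libraries separate from those of the next gene in the order. In FO B (Young) the order was the same except that Aldoa (446 FPKM) and Gapdh (443 FPKM), whose libraries overlapped, changed places. In ABCs the order was Gapdh (570.4 FPKM), Aldoa (423 FPKM), Ldha (393 FPKM), Pkm (341 FPKM) and Eno1 (334 FPKM), and the libraries of Ldha, Pkm and Eno1 overlapped between neighbours. Pkm thus lay below and separate from Eno1 in both FO B groups and reached the level of Eno1 in ABCs. Summed over the 10 genes, the levels of young FO B cells were 1891 to 2021 FPKM, those of aged FO B cells 2039 to 2253 FPKM and those of ABCs 2155 to 2305 FPKM, so that the sums of ABCs and FO B (Aged) overlapped.

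**Figure D1:**
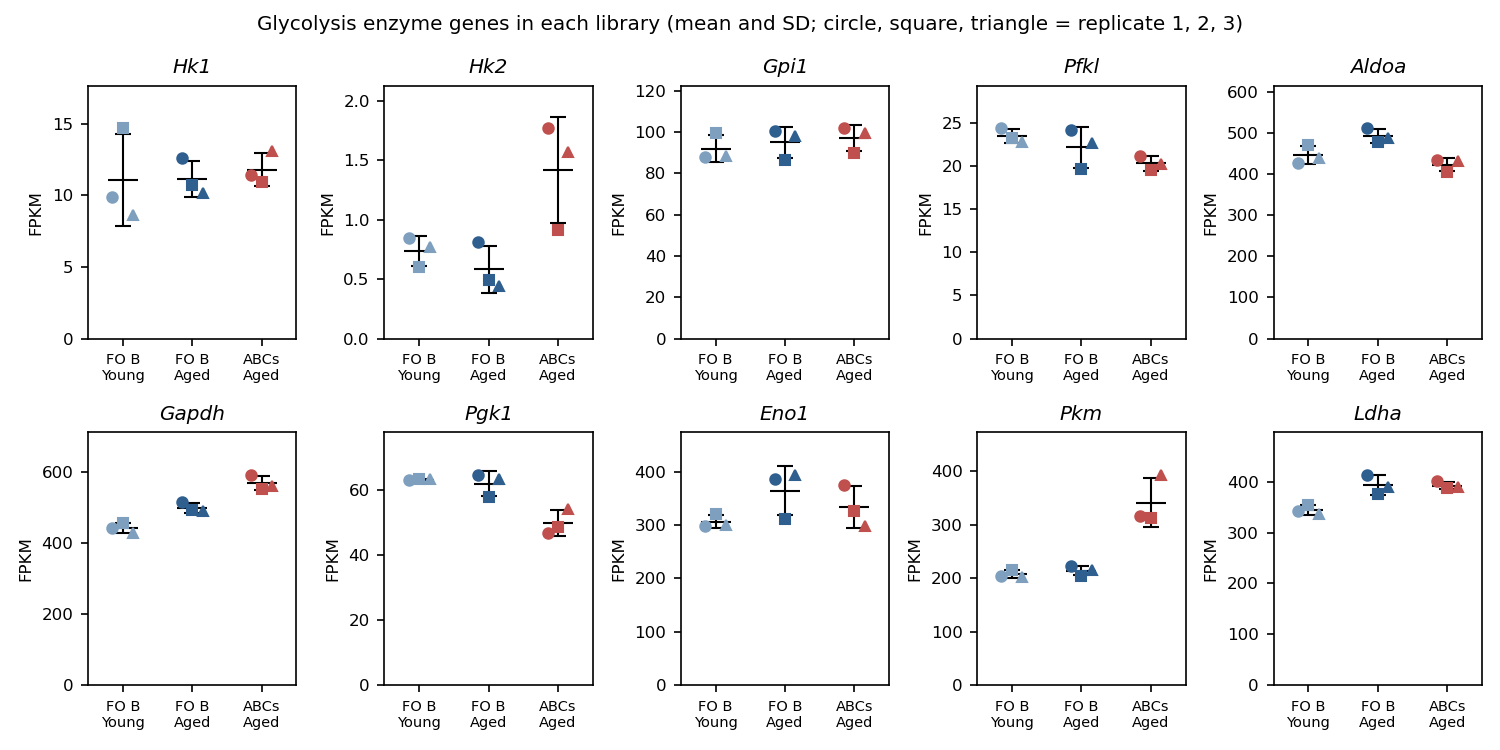
FPKM of each of the 10 genes in each library (vertical axis, from 0, with its own scale for each gene), by group on the horizontal axis. Points are libraries (circle, square and triangle for replicates 1, 2 and 3), and bars give the mean and SD of 3 libraries. For Pkm the ABC libraries (313 to 394 FPKM) lie above both FO B groups (203 to 222 FPKM), Pgk1 lies lower in ABCs (46.7 to 54.3 FPKM) and Ldha overlaps between ABCs and FO B (Aged).

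The comparison of ABCs with FO B cells of aged mice asks which genes set the ABC subset apart at the same age. Pkm, which encodes the muscle-type pyruvate kinase that makes pyruvate and ATP in the last step, was the gene called among the 10. Its levels were 222, 205 and 216 FPKM in FO B (Aged) and 317, 313 and 394 FPKM in ABCs. All ABC libraries lay above all FO B libraries, and ABCs replicate 3 was the highest. The ratio of the means was 1.59, and the log2 difference was 0.66 (SE 0.10, 95% interval 0.43 to 0.89, FDR 0.0024 by limma with Benjamini-Hochberg adjustment). Thus 1 of the 10 genes was higher and 0 were lower at this threshold, where 12.0% of the 10412 genes tested were higher and 7.86% were lower. At an unadjusted limma p under 0.05, 3 were higher and 2 lower, while 46.7% of all genes tested passed in either direction. The median log2 difference was 0.02 over the 10 genes and -0.01 over all genes tested. The call of Pkm did not hold in every fit. Without FO B (Aged) replicate 1, 2 or 3 the FDR was 0.0119, 0.0128 and 0.0121 with log2 differences of 0.69, 0.63 and 0.67, and with no filter on low genes the FDR was 0.0299. Without ABCs replicate 3 the log2 difference was 0.55 with an FDR of 0.00056. Pkm makes alternatively spliced M1 and M2 forms, which these values per gene do not separate.

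In bulk RNA of sorted cells, more cells with a transcript and more of it per cell cannot be told apart. The cell cycle list summed to 66.6 to 73.6 FPKM in FO B (Aged) and 77.4 to 128 FPKM in ABCs. Of its 11 tested genes 2 were called, Mki67 and Ccnb2, both higher. For this list and those that follow, the shares over all genes tested were 12.0% higher and 7.86% lower. The call of Mki67 was lost in 8 of 15 alternative fits (limma FDR up to 0.0464) and that of Ccnb2 in 5 of 16 (up to 0.0495), in both genes without any of the FO B (Aged) libraries. The macrophage and monocyte list summed to 10.6 to 16.2 FPKM in FO B (Aged) and 196 to 240.3 FPKM in ABCs, of which Adgre1 made 174 to 222 FPKM. Adgre1 and Vcam1 were the 2 genes called of 4 tested, and Vcam1 was at 0.317 to 0.634 and 2.14 to 3.75 FPKM (limma FDR 0.00388). The call of Vcam1 was lost in 5 of 15 alternative fits (limma FDR up to 0.0324). Cd68 was at 3.15 to 4.70 and 6.38 to 13.1 FPKM and did not pass (limma FDR 0.0155), and Lyz2 overlapped. Csf1r, Cd14, Fcgr1, Mertk and Cd5l were below 1 FPKM in every ABC library, and Ccr2 reached 1.93 FPKM in ABCs replicate 3. The dendritic cell list summed to 2.93 to 5.42 and 4.39 to 8.09 FPKM. Zbtb46 was called of 2 tested (0.437 to 1.46 and 2.90 to 3.34 FPKM, limma FDR 0.00542), a call lost in 7 of 15 alternative fits (limma FDR up to 0.0454). The other, Flt3, had a lower mean in ABCs, at 1.11 to 2.85 and 0.105 to 1.17 FPKM, and did not pass (log2 difference -0.86, limma FDR 0.0862). Siglech was higher in ABCs without overlap, at 0 to 0.36 and 0.664 to 1.56 FPKM, and its mean was too low for the test. Ccr9 and Cd209a overlapped, and Xcr1 and Clec9a were below 1 FPKM in every library. The NK cell list summed to 0.6 to 1.01 and 24.5 to 38.0 FPKM, nearly all of it Prf1, with Ncr1 below 0.1 FPKM. The plasma cell list summed to 129 to 148 and 191 to 225 FPKM, most of it Xbp1 (102 to 122 and 126 to 142 FPKM, limma FDR 0.0840). Of its 5 tested genes Prdm1 was called, at 0.180 to 0.713 and 2.93 to 5.70 FPKM (limma FDR 0.00119). Jchain was at 2.73 to 8.44 and 12.5 to 61.6 FPKM (limma FDR 0.0188). Sdc1 was at 2.69 to 3.76 and 8.37 to 29.5 FPKM (limma FDR 0.0142). Irf4 overlapped, at 17.1 to 17.8 and 11.1 to 20.7 FPKM (limma FDR 0.49). The 7 T cell markers in the files summed to at most 1.88 FPKM in any library. Of the 8 B lineage genes, Cd22 and Blk were higher and Pax5 was lower in ABCs, and 5 did not pass. The call of Pax5 was lost in 9 of 16 alternative fits (limma FDR up to 0.125), among them those without FO B (Aged) replicate 1 or 3 or any ABC library, and that of Blk in 3 of 16 (up to 0.0134), among them those without FO B (Aged) replicate 1 or 3. The part of these cells or states in the level of Pkm was not tested. The fit without ABCs replicate 3 cannot show it, because ABCs replicates 1 and 2 also had higher cell cycle sums than FO B (Aged).

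Another 4 of the 10 genes had ABC libraries that did not overlap those of FO B (Aged) but missed the threshold. Hk2, the inducible hexokinase, was at 0.811, 0.495 and 0.445 FPKM in FO B (Aged) and at 1.77, 0.914 and 1.57 FPKM in ABCs. These low values stood for 35, 26 and 21 reads and for 77, 44 and 69 reads. The ratio of the means was 2.43 and the limma log2 difference 0.60 (95% interval 0.11 to 1.09, FDR 0.0594), which was 1.26 with a pseudocount of 0.01 in place of 1 (FDR 0.0623). Gapdh, which oxidizes glyceraldehyde 3-phosphate and yields NADH, was at 516, 493 and 492 FPKM in FO B (Aged) and at 594, 554 and 563 FPKM in ABCs (limma log2 difference 0.19, 95% interval 0.04 to 0.33, FDR 0.0503). The ABC libraries of both genes lay above the FO B libraries, for Hk2 with ABCs replicate 2 closest to them.

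Pgk1, which makes the first ATP of the lower pathway, was at 64.8, 57.8 and 63.5 FPKM in FO B (Aged) and at 46.7, 48.7 and 54.3 FPKM in ABCs. The limma log2 difference was -0.31 (95% interval -0.50 to -0.11, FDR 0.0247), and without ABCs replicate 3, the highest ABC library, it was -0.37 with an FDR of 0.00919. Aldoa, the aldolase that splits fructose 1,6-bisphosphate, was at 512, 478 and 487 FPKM in FO B (Aged) and at 434, 404 and 431 FPKM in ABCs (limma log2 difference -0.22, 95% interval -0.37 to -0.07, FDR 0.0335). Counting Pkm, the libraries were without overlap and higher in ABCs for 3 of the 10 genes and lower for 2, while 26.3% of all tested genes were higher and 26.3% lower in this way. By exact two-sided permutation of mean FPKM each of these 5 genes had p = 0.1, the smallest value that 3 against 3 libraries allow. The genes just before and after Pgk1 in the pathway, Gapdh and the mutase Pgam1, had differences of the opposite sign.

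The other 5 genes overlapped between ABCs and FO B (Aged). Ldha, the A subunit of lactate dehydrogenase, was at 414, 376 and 389.7 FPKM in FO B (Aged) and at 400.5, 388 and 389 FPKM in ABCs, with a log2 difference of 0.00 and a 95% interval of -0.15 to 0.15. Gpi1, the isomerase between glucose 6-phosphate and fructose 6-phosphate, had an interval of -0.16 to 0.23 around 0.03. Hk1, the hexokinase of most tissues, was at 10.2 to 12.6 FPKM in FO B (Aged) and 10.9 to 13.1 FPKM in ABCs with an interval of -0.20 to 0.34. For Pfkl, the liver-type phosphofructokinase, the levels were 19.6 to 24.2 and 19.5 to 21.2 FPKM with an interval of -0.34 to 0.11. Eno1, the ubiquitous enolase, had an interval of -0.41 to 0.16 around -0.12.

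**Figure D2:**
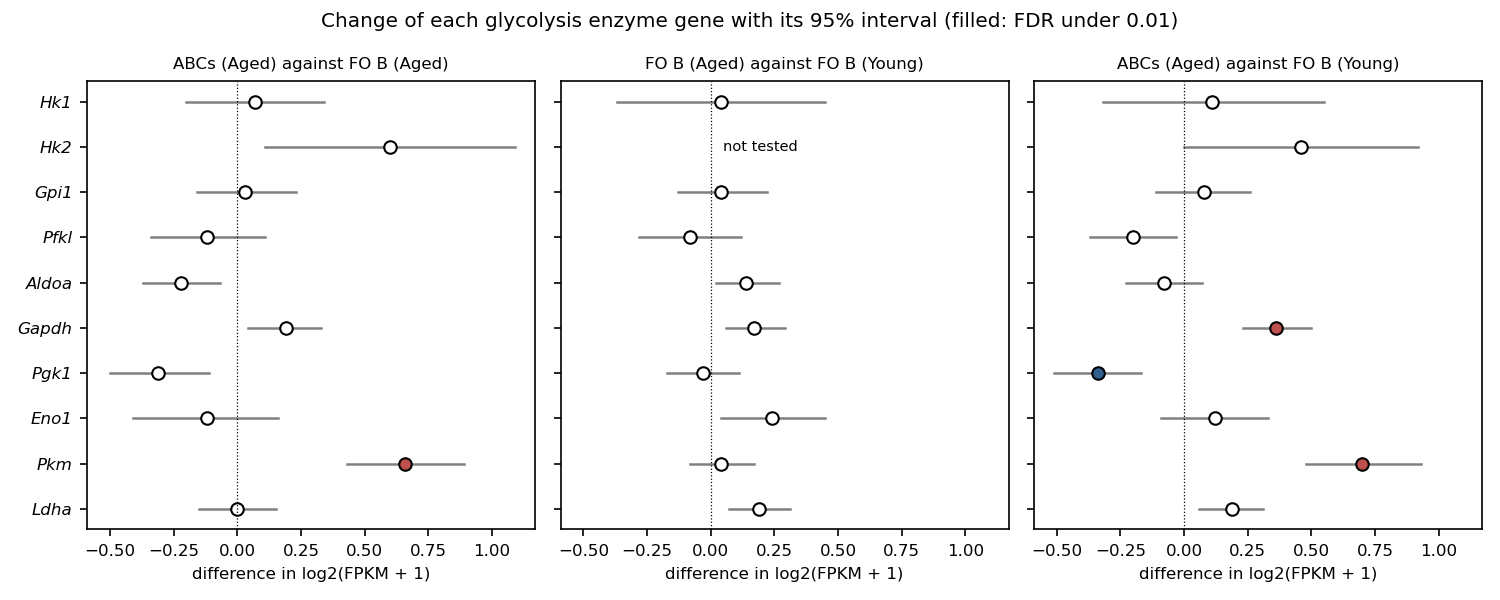
Difference of log2(FPKM + 1) for each of the 10 genes (horizontal axis) with its 95% interval, in 3 panels for the 3 comparisons. Filled points passed an FDR of 0.01 (red higher, blue lower) and open points did not, and Hk2 was below the mean of 1 FPKM needed for the test between FO B groups. Pkm is filled in both comparisons with ABCs, Gapdh and Pgk1 are filled in the comparison of ABCs with FO B (Young), and no point is filled between the FO B groups.

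The comparison of FO B (Aged) with FO B (Young) sets follicular cells of mice 50 weeks old against those of mice 8 weeks old. The sample titles do not say whether both were sorted and prepared together, so age cannot be told apart from batch. None of the 9 genes tested was called by limma, while 0.148% of the 10122 genes tested were higher and 0.0198% lower in aged mice, and 4 of the 9 had an unadjusted p under 0.05, all with higher means in aged mice, against 1298 (12.8%) of all genes in either direction. Gapdh was at 443, 457 and 429 FPKM in young and 516, 493 and 492 FPKM in aged mice, a limma log2 difference of 0.17 (95% interval 0.06 to 0.29, FDR 0.188). Ldha was at 343, 355 and 336 FPKM and at 414, 376 and 389.7 FPKM, a limma log2 difference of 0.19 (95% interval 0.07 to 0.31, FDR 0.191). Aldoa was at 428, 471 and 439 FPKM and at 512, 478 and 487 FPKM, a limma log2 difference of 0.14 (FDR 0.327). All aged libraries lay above all young ones for these 3 genes, for Aldoa by the gap between 471 and 478 FPKM. Thus 3 of the 10 genes were higher without overlap and 0 lower, against 9.64% and 8.96% of all tested genes. Over the alternative fits, the log2 differences of these 3 genes fell as low as 0.05 (Gapdh), 0.06 (Ldha) and 0.01 (Aldoa). Their limma FDR was highest with upper-quartile scaling, at 0.764, 0.688 and 0.929.

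Pkm, the gene called in ABCs, was at 205, 216 and 203 FPKM in FO B (Young) and overlapped with FO B (Aged), with a 95% interval of -0.08 to 0.17. The range of Pgk1 in young FO B cells was narrow, 63.0 to 63.4 FPKM, and within that of aged FO B cells, 57.8 to 64.8 FPKM. Hk2 was at 0.848, 0.600 and 0.768 FPKM in FO B (Young), or 40, 28 and 36 reads, and overlapped with FO B (Aged) at 0.445 to 0.811 FPKM. Hk1 had the widest interval of the 9 genes tested, -0.37 to 0.45, with FO B (Young) replicate 2 at 14.7 FPKM and the other 2 young libraries at 9.91 and 8.60 FPKM.

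The comparison of ABCs with FO B (Young) differs in subset and in age, and it shares its libraries with both comparisons above. Pkm (log2 difference 0.70, 95% interval 0.48 to 0.93, limma FDR 0.00137) and Gapdh (0.36, 0.23 to 0.50, limma FDR 0.00279) were higher in ABCs, and Pgk1 (-0.34, -0.51 to -0.17, limma FDR 0.00907) was lower. These were 2 genes higher and 1 lower of 10, against 13.8% and 9.82% of the 10438 genes tested. The mean of Gapdh was 443 FPKM in FO B (Young), 500.3 in FO B (Aged) and 570.4 FPKM in ABCs, and the libraries of the 3 groups did not overlap. The call of Gapdh was lost in 9 of 16 alternative fits (FDR 0.0103 to 0.0598), among them those without ABCs replicate 1 (log2 difference 0.33) or any of the young libraries (0.34 to 0.39). That of Pgk1 was lost in 9 of 16 (FDR 0.0201 to 0.107), among them those without any of the young libraries or without ABCs replicate 1 (-0.29) or 2 (-0.32). That of Pkm was lost in 1 of 16, with no filter on low genes (FDR 0.0213). Without overlap, 4 of the 10 genes were higher (Hk2, Gapdh, Pkm and Ldha) and 2 lower (Pfkl and Pgk1), against 27.7% and 27.6% of all tested genes.

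The 10 genes leave out several steps, and the isoenzymes and missing steps were read from a second list of 20 genes, of which 9 were expressed at the mean needed for the test. Between ABCs and FO B (Aged), 3 of the 9 were higher, 1 was lower and 5 did not pass, with a median log2 difference of 0.25. Of all genes tested, 12.0% were higher and 7.86% lower. Tpi1, the triosephosphate isomerase between aldolase and Gapdh, was at 74.2, 73.4 and 69.5 FPKM in FO B (Aged) and at 130, 109 and 133 FPKM in ABCs (log2 difference 0.77, SE 0.09, limma FDR 0.000782). Pgam1, the phosphoglycerate mutase between Pgk1 and Eno1, was at 99.9, 96.2 and 90.7 FPKM and at 129.8, 127 and 138 FPKM (0.46, SE 0.07, limma FDR 0.00221). Bpgm, which makes and removes 2,3-bisphosphoglycerate beside the Pgk1 step, was at 8.54 to 9.63 FPKM and at 16.4 to 21.1 FPKM (0.99, SE 0.11, limma FDR 0.000826). Eno3, the muscle enolase, was at 7.27 to 8.05 FPKM and at 3.55 to 3.75 FPKM and was lower (-0.92, SE 0.10, limma FDR 0.000762). The ABC libraries of these 4 genes did not overlap with either FO B group. None of the 9 genes passed between FO B (Aged) and FO B (Young), where 1 of them had an unadjusted limma p under 0.05.

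Along the lower pathway the steps therefore did not share a direction in ABCs. Tpi1, Pgam1 and Pkm were higher. Gapdh had a higher mean and Pgk1 a lower mean, and each passed only against FO B (Young). Eno3, with a mean of 3.65 FPKM in ABCs beside 334 FPKM for Eno1, was lower. Eno1, Ldha and the sum of Eno1 and Eno1b overlapped with FO B (Aged). At the hexokinase step, Hk2 made up 13.3, 7.49 and 10.5% of the summed FPKM of Hk1, Hk2 and Hk3 in ABCs and 5.95, 4.35 and 4.07% in FO B (Aged). The mean share was 10.4% ± 2.90 (SD, n = 3) against 4.79% ± 1.01 (SD, n = 3; exact two-sided permutation p = 0.1, the smallest possible). In FO B (Young) the share was 7.69, 3.91 and 8.20%, and the ABC range of 7.49 to 13.3% overlapped with replicates 1 and 3 of that group. At the phosphofructokinase step, Pfkp, the platelet type, outweighed Pfkl in all 9 libraries. Its share of the summed FPKM of Pfkl, Pfkm and Pfkp was 53.1 to 58.4% in young FO B cells, 56.5 to 62.5% in aged FO B cells and 66.0, 62.7 and 76.2% in ABCs. The ABC mean of 68.3% ± 7.03 (SD, n = 3) against 59.8% ± 3.02 in FO B (Aged) had an exact two-sided permutation p of 0.1. The gap between ABCs replicate 2 and the highest aged FO B library was that between 62.7 and 62.5%. Over the 14 comparisons of shares none could reach 0.05. Ldhb and Pklr, alternatives to Ldha and Pkm, were below 1 FPKM in all 9 libraries.

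**Figure D3:**
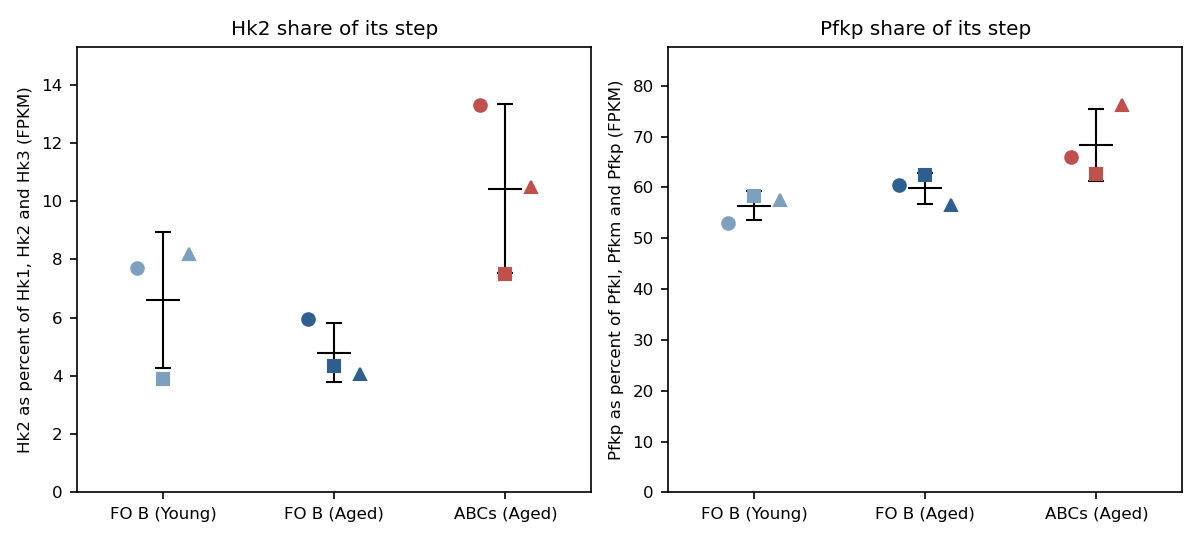
Share of Hk2 in the summed FPKM of 3 hexokinase genes (left) and of Pfkp in the summed FPKM of 3 phosphofructokinase genes (right), in percent, by group. Points are libraries (circle, square and triangle for replicates 1, 2 and 3) with the mean and SD, and both axes start at 0. The ABC libraries lie above the FO B (Aged) libraries in both panels, for Pfkp by the gap between 62.5 and 62.7%.

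The level of Eno1 cannot be read without Eno1b, a copy on another chromosome. In GENCODE M21 on GRCm38, 39.3% of the windows of read length in the Eno1 transcripts occur unchanged in transcripts of other genes, nearly all in Eno1b. Eno1 was at 299, 320.2 and 300.1 FPKM in young FO B cells, at 387, 312 and 395 FPKM in aged FO B cells and at 376, 327 and 299 FPKM in ABCs. Eno1b was at 67.9, 72.4 and 69.7 FPKM, at 26.6, 67.8 and 27.4 FPKM and at 43.8, 37.4 and 51.6 FPKM in the same libraries. Eno1b took 18.4 to 18.9% of the sum of both in young FO B cells, and FO B (Aged) replicate 2 with 17.9% stood with the young libraries while replicates 1 and 3 had 6.44 and 6.49%. The sums were 366 to 393 FPKM in young FO B cells, 379.7 to 422 FPKM in aged FO B cells and 351 to 419 FPKM in ABCs, and overlapped between all groups. With both genes summed, the limma log2 difference between FO B (Aged) and FO B (Young) was 0.11 (FDR 0.502) instead of 0.24 for Eno1 alone (FDR 0.306), and between ABCs and FO B (Aged) it was -0.10 (FDR 0.390). Sequence shared with other genes was also found for Pgk1 (67.0% of its windows, with 3 genes) and Gapdh (53.0%, with 85 genes), whereas it was 7.32% for Pkm and 0% for Hk2, Pfkl and Aldoa. Of the genes that share windows with Pgk1, 0 have a row in the files, and of those for Gapdh 4 have one. How the authors' counting divided such reads is not given in the sources used here.

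**Figure D4:**
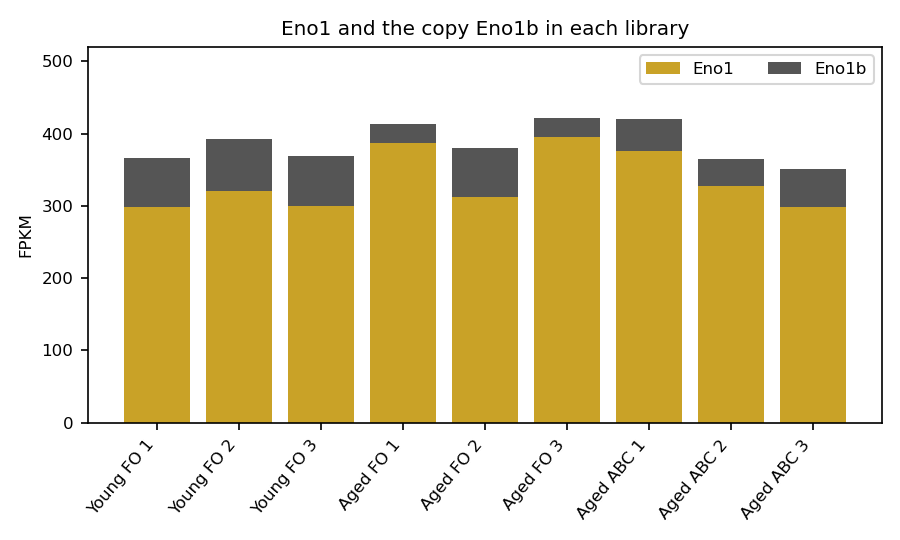
Stacked FPKM of Eno1 (gold) and Eno1b (gray) in each of the 9 libraries, with the axis from 0. Aged FO B replicates 1 and 3 have little Eno1b (26.6 and 27.4 FPKM) and aged FO B replicate 2 has as much (67.8 FPKM) as the young libraries, while the sums of 351 to 422 FPKM overlap between the groups.

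Hif1a and Myc encode transcription factors known to activate most of these enzyme genes, HIF-1 through the core ACGTG or GCGTG of the hypoxia response element and MYC through the E-box CACGTG. In ABCs they moved apart. Hif1a was at 41.0, 36.3 and 36.7 FPKM in FO B (Aged) and at 65.3, 61.5 and 67.8 FPKM in ABCs (log2 difference 0.76, SE 0.08, limma FDR 0.000467). Myc was at 36.3, 35.3 and 32.8 FPKM and at 16.8, 15.1 and 11.1 FPKM (-1.24, SE 0.15, limma FDR 0.000862). Of the 16 regulators tested, 1 was higher, 2 were lower (Myc and Gsk3a, a kinase that restrains glycogen synthesis, with -0.66) and 13 did not pass. Of 10 known HIF-1 targets outside glycolysis that were tested, Adm, which encodes adrenomedullin, was higher (2.49, limma FDR 9.93e-05). Bnip3, a mitophagy receptor, was lower (-1.66, limma FDR 0.00133) and 8 did not pass. For both lists the shares over all genes tested were 12.0% higher and 7.86% lower. The part of HIF-1 or MYC in these levels was not tested.

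In the 250 bases before the start site, taken from RefSeq on GRCm38.p6 with 1 window for each gene, 4 of the 10 genes held ACGTG on either strand (Hk2, Aldoa, Pgk1 and Ldha) and 3 held GCGTG (Pfkl, Gapdh and Eno1). Of all 32851 windows of this kind 16.6% held ACGTG and 28.2% GCGTG, and of the 9178 windows with at least 60% G and C 23.0% and 53.9%. CACGTG, which contains ACGTG, was held by Ldha alone of the 10, with 2 copies, against 6.02% of all windows. Pkm, Hk1 and Gpi1 held none of the 3 motifs in this window. Annotated exons of any gene cover 208 of the 250 bases for Pkm and 167 for Gpi1. The Pkm window (chr9:59656326-59656575) lies mostly past the annotated gene start at chr9:59656368, so most of the sequence before that start was not searched. The windows with at least 2 copies of ACGTG are shown because their genes had 3 different patterns in ABCs, with higher libraries for Hk2, lower libraries for Pgk1 and overlapping libraries for Ldha. They lie at chr6:82774455-82774704 on the minus strand for Hk2, at chrX:106186850-106187099 on the plus strand for Pgk1 and at chr7:46845554-46845803 on the plus strand for Ldha, and overlap no annotated exon. Capitals mark each match to these motifs or their reverse complements, read 5′ to 3′ on the strand of the gene.
Hk2: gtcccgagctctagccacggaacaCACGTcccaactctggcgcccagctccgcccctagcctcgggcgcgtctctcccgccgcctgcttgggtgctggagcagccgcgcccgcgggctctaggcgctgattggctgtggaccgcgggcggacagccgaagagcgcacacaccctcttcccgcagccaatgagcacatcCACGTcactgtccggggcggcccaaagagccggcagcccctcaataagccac
Pgk1: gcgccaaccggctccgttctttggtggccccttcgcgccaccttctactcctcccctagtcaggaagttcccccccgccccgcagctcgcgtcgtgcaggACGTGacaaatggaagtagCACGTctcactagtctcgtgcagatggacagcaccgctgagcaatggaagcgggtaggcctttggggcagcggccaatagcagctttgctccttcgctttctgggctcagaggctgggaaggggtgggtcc
Ldha: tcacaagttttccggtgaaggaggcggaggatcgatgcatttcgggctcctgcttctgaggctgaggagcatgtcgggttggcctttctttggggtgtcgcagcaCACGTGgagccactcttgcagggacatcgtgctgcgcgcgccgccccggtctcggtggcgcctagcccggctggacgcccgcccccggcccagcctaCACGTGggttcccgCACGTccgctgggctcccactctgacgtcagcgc
The 2 capital runs of 6 bases in Ldha are the E-boxes. A match is a run of letters and does not show that a factor bound there.

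Glucose enters through Slc2a transporters and lactate leaves through Slc16a transporters with their chaperone Bsg. Of 7 such genes tested between ABCs and FO B (Aged), 2 were higher, 2 were lower and 3 did not pass, against 12.0% higher and 7.86% lower of all genes. Slc2a6, a lysosomal hexose transporter, was at 8.68, 7.88 and 4.74 FPKM in FO B (Aged) and at 16.3, 23.4 and 26.0 FPKM in ABCs (log2 difference 1.51, limma FDR 0.00305), and Bsg was at 103 to 112 FPKM and at 144 to 152 FPKM (0.48, limma FDR 0.00138). Slc2a3, a high-affinity glucose transporter, fell from 11.6, 10.8 and 12.5 FPKM to 3.86, 2.65 and 0.612 FPKM (-2.04, limma FDR 0.00534). Slc16a1 fell from 2.42 to 2.80 FPKM to 0.716 to 1.27 FPKM (-0.91, limma FDR 0.00616, and -1.54 with a pseudocount of 0.01). Slc16a7 was at 3.62 to 5.70 and 0.274 to 2.15 FPKM and did not pass (-1.30, limma FDR 0.0228). Slc16a3 went the other way without overlap, at 0.139 to 0.395 FPKM in FO B (Aged) and 0.507 to 1.46 FPKM in ABCs. Its mean was too low for the test. Slc2a1, the main glucose transporter of activated lymphocytes, was at 30.4 to 33.6 FPKM and at 36.3 to 48.8 FPKM without overlap and did not pass (0.41, limma FDR 0.0282). It passed against FO B (Young), at 27.6 to 29.9 FPKM (0.55, limma FDR 0.00735), but not in 9 of 16 alternative fits (limma FDR up to 0.0537).

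The genes that set the speed of phosphofructokinase and the fate of pyruvate were read from further lists. Of all genes tested between ABCs and FO B (Aged), 12.0% were higher and 7.86% lower. Pfkfb3, which makes the activator fructose 2,6-bisphosphate, was the gene called of 5 tested, at 5.48 to 6.51 FPKM in FO B (Aged) and 9.64 to 11.6 FPKM in ABCs (0.73, limma FDR 0.00274). Of 13 genes for pyruvate entry into mitochondria, 1 was higher, 2 were lower and 10 did not pass. Pdk1 and Pdk3 encode kinases that switch off pyruvate dehydrogenase, and they changed in opposite directions. Pdk1 fell from 10.7, 11.4 and 12.6 FPKM to 3.74, 3.52 and 3.23 FPKM (-1.48, limma FDR 0.000143), and Pdk3 rose from 19.5 to 20.5 FPKM to 27.0 to 34.1 FPKM (0.59, limma FDR 0.00366). Mpc1, a subunit of the pyruvate carrier, fell from 219.9, 205 and 204 FPKM to 122, 119.5 and 122 FPKM (-0.78, limma FDR 0.000151). Its partner Mpc2 was at 66.8 to 75.5 and at 85.5 to 87.9 FPKM and did not pass (0.29, limma FDR 0.0138). The 4 subunits Pdha1, Pdhb, Dlat and Dld of pyruvate dehydrogenase had log2 differences between -0.12 and 0.06 and were not called.

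Branches of the pathway and the citric acid cycle held few calls. For the pentose phosphate pathway 0 of 7 genes passed in either direction, for the serine branch 0 of 5 and for glycogen 0 of 8, and at an unadjusted limma p under 0.05 the 3 lists had 5 genes with higher and 3 with lower levels of the 20 tested, against 46.7% of all genes in either direction. Of 16 citric acid cycle genes, Ogdh was higher (0.41, limma FDR 0.00481), Fh1 was lower (-0.42, limma FDR 0.00712) and 14 did not pass. The shares over all genes tested were 12.0% higher and 7.86% lower. The median log2 differences of these 4 lists lay between -0.06 and 0.07, near the -0.01 of all genes. Between FO B (Aged) and FO B (Young), 0 genes of any of the 10 lists around glycolysis were called by limma. Of the 19 genes of these lists called between ABCs and FO B (Aged), 6 kept an FDR under 0.01 in every alternative fit run (Eno3, Bsg, Mpc1, Pdk1, Hif1a and Adm).

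**Figure D5:**
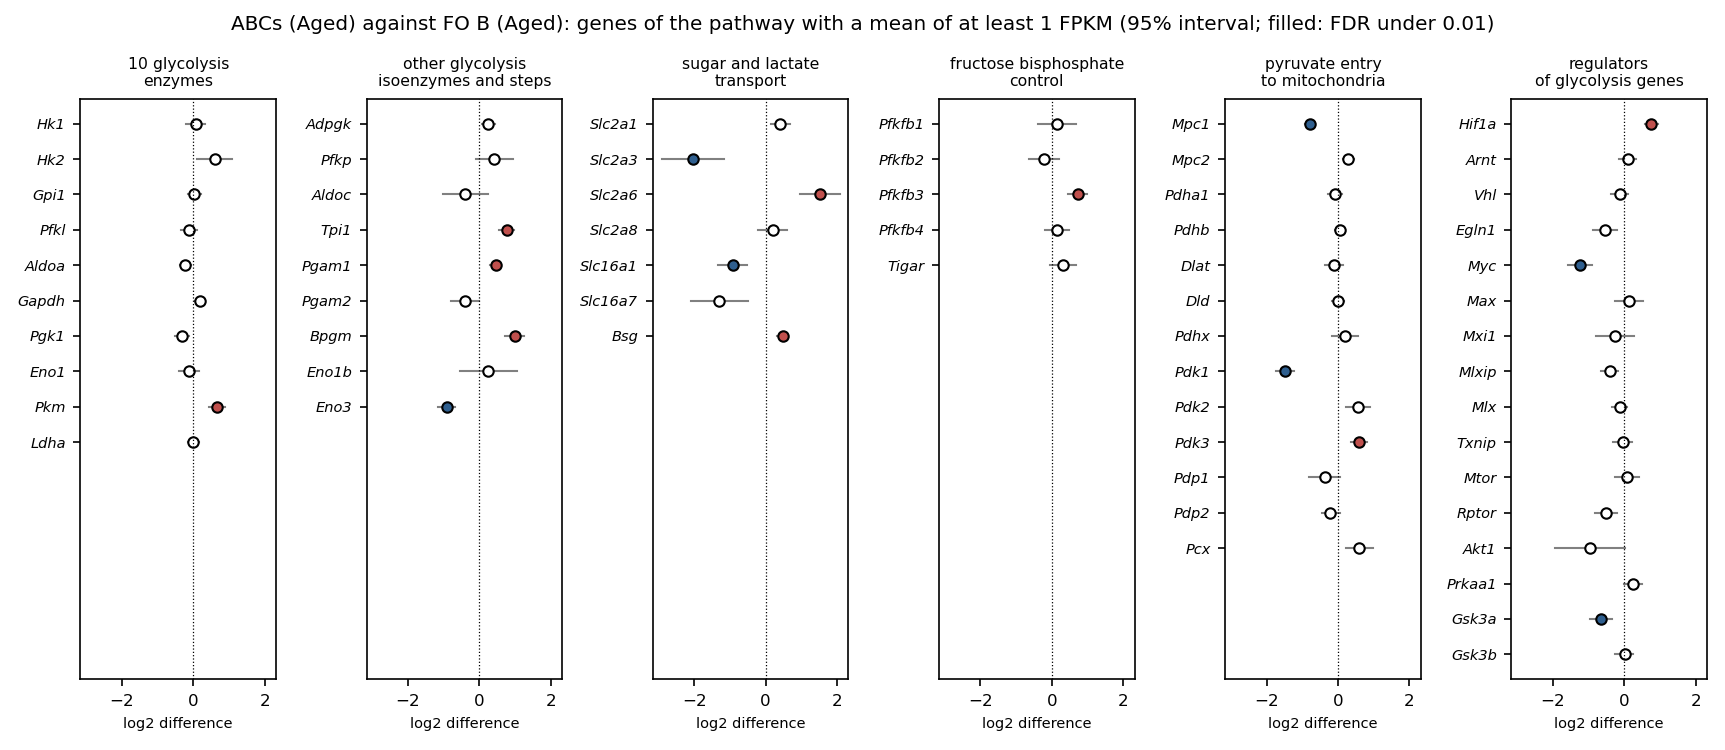
Difference of log2(FPKM + 1) between ABCs and FO B (Aged) for the 10 glycolysis enzyme genes and 5 lists around them (horizontal axis, with 95% intervals), for genes whose mean reached 1 FPKM. Filled points passed an FDR of 0.01, red for higher and blue for lower in ABCs. The 10 enzymes lie between -0.31 and 0.66, whereas Slc2a3 (-2.04), Slc2a6 (1.51), Pdk1 (-1.48) and Myc (-1.24) lie farther from 0.

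In GENCODE M21 on GRCm38, the build that the name mm10 stands for, all 10 genes are annotated as protein-coding. Hk1 (chr10:62268855-62379908), Hk2 (chr6:82725025-82774454), Gpi1 (chr7:34201330-34230336), Pfkl (chr10:77986947-78010083) and Gapdh (chr6:125161715-125166467) lie on the minus strand. Pgk1 (chrX:106187100-106203699), Eno1 (chr4:150236721-150248879), Pkm (chr9:59656368-59679375) and Ldha (chr7:46841475-46855627) lie on the plus strand. Aldoa has 2 adjoining records on the minus strand (chr7:126795234-126800751 and chr7:126800790-126809108), and the files hold 1 row for it. Hk1, Hk2, Gpi1, Gapdh and Pkm each overlap 1 other annotated gene and Aldoa overlaps 2 (Fam57b and Gm44856), and the library kits do not record which strand a read came from.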

How the data were processed

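The FPKM deposited by the authors, with 1 row for each gene symbol, were made from single-end reads of SMART-Seq HT cDNA with Nextera libraries mapped to mm10. The methods name TopHat, Bowtie2, SAMtools and Cufflinks, and the submitters' processing notes list TopHat2 2.1.1, Bowtie2 2.2.8, SAMtools 0.1.18 and Cuffdiff 2.2.1. Gene annotation, scaling between libraries and use of strand are not given in the sources used here, and the depths above equal mapped reads only if no scaling was applied.

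Groups came from the sample titles. Genes whose mean reached 1 FPKM were fitted on the log2(FPKM + 1) scale by limma 3.58.1 (R 4.3.3; lmFit, then eBayes with a trend) on the 6 libraries of each comparison. The FDR is the Benjamini-Hochberg value over all genes tested. The fit was tested on simulated data. Mean FPKM and shares were compared by exact permutation of 20 orders. Python 3.11.15 with pandas 2.3.3 was used otherwise. Each library is 1 mouse by the figure legends of the study. The 10 genes, the lists and the tests were chosen with earlier results of these data known. All 10 genes are named, and up to 4 called genes of each list. Alternatives were other pseudocounts, filters, scalings and fits, a replicate block and leaving out each library, and a sum of Eno1 and Eno1b was added after the data were seen.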

Additional observations from a re-analysis of the deposited data

How the results depend on the processing

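Over the alternative fits, the log2 differences of the 10 genes stayed on the same side of 0 and of the threshold in 414 of 461 values, lost a call in 23, gained one in 3 and turned direction in 21, none of which was a called value. The cause of these changes was not tested. Between ABCs and FO B (Aged), the count of the 10 genes called higher was 0 instead of 1 with no filter and with a log2 difference above 2.3, and 0 to 1 when a library was left out (0 without each FO B (Aged) library). The count called lower was 1 instead of 0 with quantile normalization (Aldoa, -0.35) and with all 9 libraries (Pgk1), 2 at an FDR under 0.05, and 0 to 1 when a library was left out (Pgk1 without ABCs replicate 3). Between ABCs and FO B (Young), the count called higher was 0 with no filter and with a log2 difference above 2.3, 1 with quantile normalization, upper-quartile scaling, eBayes without a trend and the replicate block, 3 at an FDR under 0.05 (with Ldha), and 1 to 2 when a library was left out. The count called lower was 0 instead of 1 with no filter, upper-quartile scaling, no trend, the replicate block and the log2 limit of 2.3, and 0 to 1 when a library was left out. Between the FO B groups the counts were 0 in every alternative run.

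Upper-quartile scaling moved the median of all genes to 0.153 between ABCs and FO B (Aged) and to -0.118 between the FO B groups. Under it Pfkl (0.06), Eno1 (0.06) and Ldha (0.18) turned direction in the first and Hk1 (-0.08), Gpi1 (-0.08) and Pkm (-0.09) in the second, and the split of all called genes in the first was 1405 higher and 273 lower instead of 1254 and 818. With quantile normalization it was 1072 and 1023, and Gpi1 turned to -0.05, and against FO B (Young) Gpi1 to -0.03 and Eno1 to -0.04. Gpi1 was at 0 as TPM. When libraries were left out, the log2 difference ranged from -0.03 to 0.09 for Gpi1 and from -0.03 to 0.04 for Ldha between ABCs and FO B (Aged). Between the FO B groups it ranged from -0.11 to 0.25 for Hk1, -0.14 to 0 for Pfkl and -0.06 to 0.02 for Pgk1, and between ABCs and FO B (Young) from -0.04 to 0.32 for Hk1. Of the 19 calls in the lists around glycolysis, 13 were lost in at least 1 alternative and 9 when a library was left out, among them Slc2a3 (8 of 16 alternatives), Slc16a1 (8 of 15), Fh1 and Gsk3a (9 of 16 each) and Ogdh (7 of 16).

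Between ABCs and FO B (Aged), deviations of same-numbered libraries had correlations of 0.08, -0.02 and 0.11. The highest with a library of another number were 0.02, 0.06 and 0. The sample titles do not state pairs, and the numbers were not taken as pairs. With 3 libraries in each group these correlations cannot show whether both cell types came from the same mice. With the replicate block 964 genes were higher and 535 lower in that comparison, and Pkm kept its call (limma FDR 0.00565). With no filter 404 and 164 of 24346 genes were called. A gene such as Hk2, with 21 to 77 reads a library, is limited by depth.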
